A study of Mus musculus with 4 samples.

Results

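The genes described here encode the core of the machinery that decides between survival, apoptosis and necroptosis downstream of death receptors, Toll-like receptors and Z-form nucleic acids: Zbp1, Ripk1, Ripk3, Mlkl, Casp8, Cflar and Fadd. They were taken by name, and a gene was measured where the platform's probe annotation gave a feature exactly 1 symbol among these names. This held for 6 of the 7 genes, with 1 feature each, out of 22180 genes with such a feature. Ripk1 was not analysed here. Expression was measured on 4 arrays of RNA from mouse bone marrow derived macrophages, phagocytes grown from marrow over 6 days with L-cell supernatant, a source of macrophage growth factor, and then given 100 ng/ml lipopolysaccharide (LPS) for 2 hours. The 2 knockout arrays were from macrophages of PP2ACαfl/fl;lyM-Cre genotype, in which a myeloid Cre recombinase deletes exon 1 of Ppp2ca, the gene of the catalytic PP2A subunit PP2ACα. The 2 control arrays were from PP2ACαfl/fl macrophages, with the same floxed alleles and no Cre, so that an effect of Cre itself and an effect of the deletion cannot be told apart. Strain, sex and age are not given in the sources used here. The arrays are labelled as biological replicates, without a statement that they came from separate mice, so the p-values measure only the spread between these arrays. All cells had received LPS, and the response to LPS itself was not measured.

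Necroptosis is a lytic form of cell death that runs without caspases. The kinases RIPK1 and RIPK3, the sensor ZBP1 and the Toll-like receptor adaptor TRIF join through a shared interaction motif (the RHIM), RIPK3 then phosphorylates the pseudokinase MLKL, and MLKL breaks the plasma membrane. The adaptor FADD brings caspase-8 and its catalytically inactive relative cFLIP (Cflar) into the same complex, where caspase-8 paired with cFLIP cleaves RIPK1 and holds necroptosis in check. In macrophages the complex can form after TLR4, TNF receptor or interferon signalling, and Zbp1 and Mlkl are known as genes that interferon induces.

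Levels are log2 units of the robust multi-array average (RMA), in which 1 unit is a doubling of signal, and differences are knockout minus control. A gene is said to rise or fall when its limma adjusted p, over all 12542 genes that passed the filter on low values, was under 0.05. Of these genes, 852 (6.79%) passed, 414 (3.3%) higher and 438 (3.49%) lower in knockout macrophages. The targeted gene Ppp2ca read 4.36 and 3.39 log2 units on the knockout arrays, against 8.25 and 7.59 on the control arrays, and fell by 4.04 (limma SE 0.36, adjusted p = 0.0076). The knockout values lie close to the filter level of 3.53, and without control replicate 1 the adjusted p was 0.0503. The macrophage markers Csf1r, Adgre1, Cd68, Itgam, Mertk, Cd14 and Fcgr1 averaged 10.95 and 10.93 log2 units on the knockout arrays and 10.81 and 10.69 on the control arrays, and Fcgr1, itself known as interferon-inducible, was the 1 that rose, by 0.94. Of the 3 measured monocyte markers, with a mean of 7.88 to 7.92 in knockout and 7.59 to 7.67 in control, Ly6c2 rose by 0.76 and Ccr2 by 0.83, and F13a1 fell by 0.79. With 1 array left out, Fcgr1, Ly6c2 and F13a1 passed in 0 of 4 cases and Ccr2 in 1, without control replicate 2. No marker of neutrophils, dendritic cells, T and NK cells, B cells, fibroblasts, or erythroid and megakaryocytic cells passed the test, and of the 31 of these that were measured 13 passed the filter. The means of these lists lay between 3.12 and 5.08 log2 units on the knockout arrays and between 2.95 and 5.16 on the control arrays. Among them the megakaryocytic marker Pf4, at 8.81 and 8.83 on the knockout arrays and 9.23 and 8.79 on the control arrays, and the dendritic marker Cd209a, at 6.61 and 6.90 on the knockout arrays and 6.93 and 6.67 on the control arrays, were well above the filter level. Signals on this scale do not reach 0. The part of these markers in the results below was not tested. In RNA of whole cultures, fewer cells of a type and less RNA per cell cannot be told apart.

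All 6 measured members passed the filter, with the lowest mean, that of Ripk3, at 6.18 log2 units in knockout and 6.15 in control, so that no member passed only through the genotype in which it was higher. Zbp1 and Mlkl, the sensor and the executioner of the pathway, rose in knockout macrophages. Ripk3, which acts between them, and Casp8, Cflar and Fadd, of the arm that holds necroptosis in check, did not pass the test. No member was tested against another, so these calls alone do not show that the members differ in their change. None of the 6 fell. The 2 rises among 6 genes stand beside 3.3% of all tested genes that rose. The median difference over the 6 genes was 0.20, and over all tested genes 0.0076. In 4 of the 6 genes both knockout arrays lay above both control arrays, which was the case for 28.8% of all tested genes, and 1 of the 6, Zbp1, reached upward the 1.5-fold cutoff that the design text of the series names, as did 2.59% of all tested genes. These shares describe 6 genes chosen by name and are not a test of the group.

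**Figure D1:**
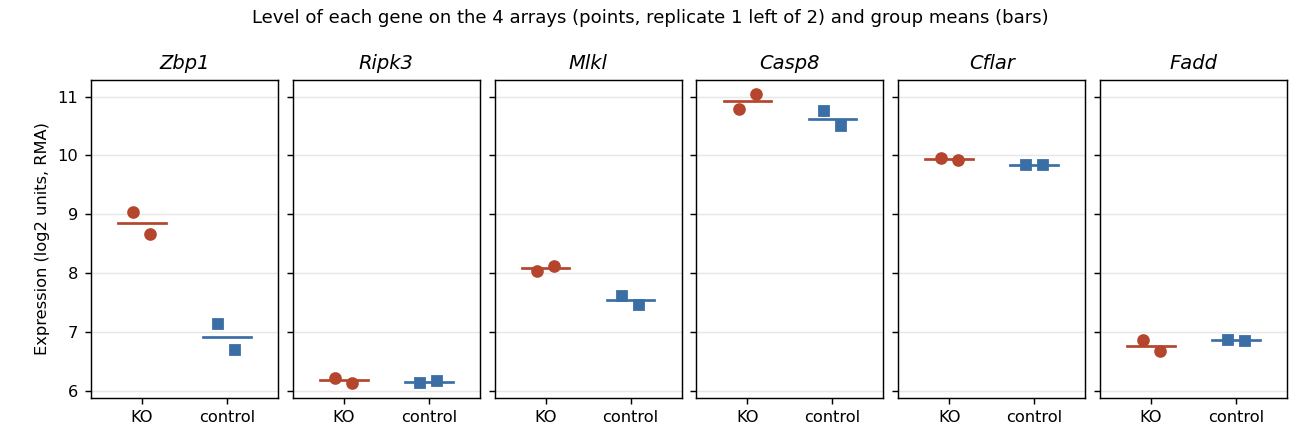
Expression of Zbp1, Ripk3, Mlkl, Casp8, Cflar and Fadd in log2 units of RMA on the 2 knockout (KO, red circles) and 2 control (blue squares) arrays, with bars at the group means. The gap between genotypes is wide for Zbp1 and visible for Mlkl, while the points of Ripk3 and Fadd overlap between genotypes; heights of different genes are not comparable, since each is read by its own probes.

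Zbp1 encodes the sensor that binds Z-form RNA and DNA and recruits RIPK3 through its RHIM. It read 9.05 and 8.66 log2 units on the knockout arrays, against 7.14 and 6.71 on the control arrays. The lowest knockout array lay 1.52 units above the highest control array, while the arrays of 1 genotype lay 0.39 apart in knockout and 0.43 apart in control. Zbp1 averaged 8.85 ± 0.27 log2 units in knockout and 6.92 ± 0.30 in control (SD, n = 2 each), and rose by 1.93 (SE 0.19, limma adjusted p = 0.0097). On the linear scale this is 3.81-fold, with a 95% interval of 2.73 to 5.33. It was the 10th highest difference among the 12542 tested genes. With any 1 array left out the difference was between 1.72 and 2.15, and the adjusted p was between 0.0358 and 0.0499, so the call held without each array but came up to the threshold.

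Over the 4 arrays, the tested genes whose centred values lay nearest to those of Zbp1 were Oas1g, Ifi209, Iigp1 and Irf7. Their root mean square distances from Zbp1 were 0.11 log2 units for Oas1g, 0.114 for Ifi209, 0.155 for Iigp1 and 0.17 for Irf7, against a median of 0.989 over all tested genes. Oas1g belongs to the 2'-5' oligoadenylate synthetases, Ifi209 to the Ifi200 family, Iigp1 to the interferon-inducible GTPases, and Irf7 encodes a transcription factor of the interferon response. Each is known as interferon-inducible and rose here, Oas1g by 2.03, Ifi209 by 1.82, Iigp1 by 2.02 and Irf7 by 2.20. Ifi209 and Irf7 passed with each of the 4 arrays left out in turn, whereas Oas1g lost the call without either knockout array (adjusted p up to 0.0708) and Iigp1 without either control array (adjusted p up to 0.0568). With only 4 arrays in 2 genotypes, likeness of pattern is mostly likeness in the size of the genotype difference.

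**Figure D2:**
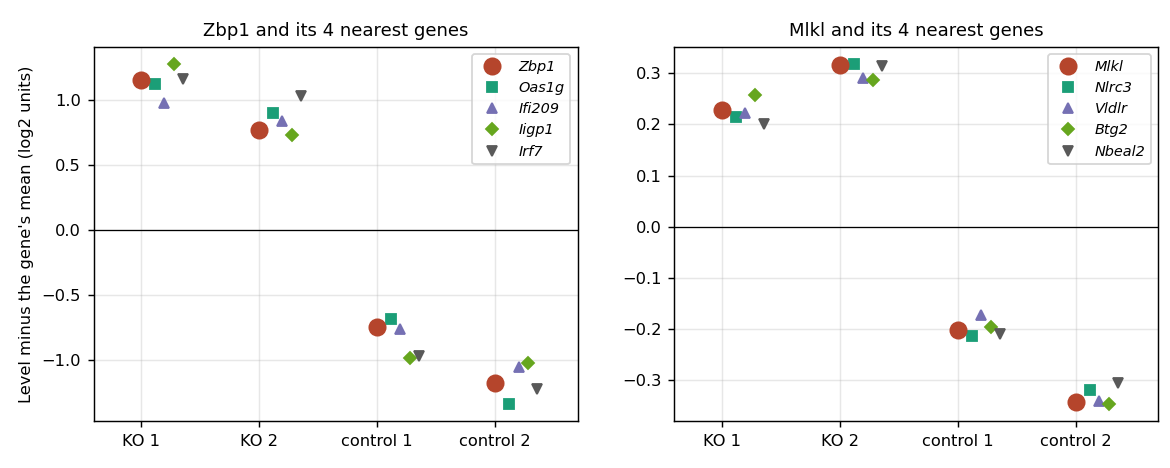
Level of Zbp1 (left) and Mlkl (right) on each array, in log2 units after subtracting the gene's mean over the 4 arrays, with the 4 tested genes nearest to each. In both panels all points of the knockout (KO) arrays lie above 0 and all points of the control arrays below it, and the vertical scale of the Zbp1 panel is wider than that of the Mlkl panel.

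Mlkl encodes the pseudokinase that oligomerises once RIPK3 has phosphorylated it and permeabilises the membrane. Its level was 8.04 and 8.13 log2 units on the knockout arrays, against 7.61 and 7.47 on the control arrays. Again the groups did not overlap, with 0.43 units between the nearest arrays of the 2 genotypes and at most 0.14 between arrays of 1 genotype. The mean was 8.09 ± 0.06 log2 units in knockout and 7.54 ± 0.10 in control (SD, n = 2 each), so that Mlkl rose by 0.55 (SE 0.10, limma adjusted p = 0.038), or 1.46-fold with a 95% interval of 1.23 to 1.73. Its group means therefore differ by less than the 1.5-fold cutoff. The call rested on all 4 arrays. With a knockout array left out the adjusted p was 0.144 (replicate 1) or 0.204 (replicate 2), and with a control array left out 0.0899 (replicate 1) or 0.107 (replicate 2), with differences of 0.47 to 0.62. It was also lost with no filter on low values (adjusted p = 0.0875).

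The genes nearest to Mlkl in pattern were Nlrc3, of the NOD-like receptor family, at a distance of 0.0144 log2 units, the VLDL receptor gene Vldlr at 0.0197, the early response gene Btg2 at 0.022 and Nbeal2, known for granule formation in platelets, at 0.0235. Vldlr was dim, at 3.94 and 4.01 log2 units on the knockout arrays and 3.54 and 3.38 on the control arrays. Against the filter level of 3.53, it passed the filter through its knockout arrays. The median distance over all tested genes was 0.294. These 4 rose by 0.51 to 0.55, and none of the 4 passed with any 1 array left out.

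**Figure D3:**
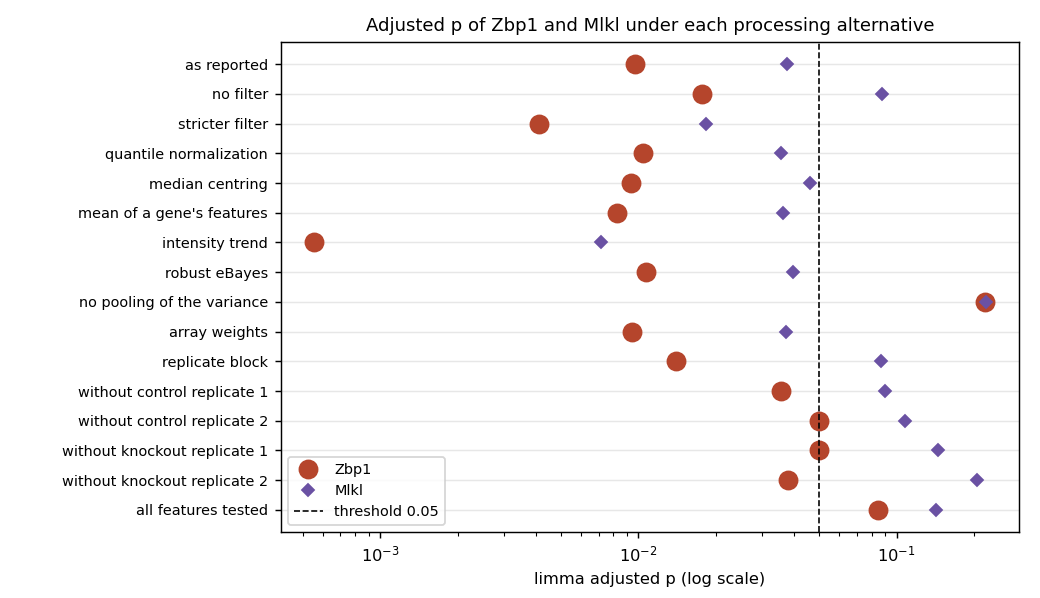
Adjusted p of Zbp1 (red circles) and Mlkl (purple diamonds) on a log axis, as reported (top row) and under each of 15 processing alternatives, with the threshold of 0.05 dashed. Zbp1 lies under the threshold in 13 of the 15 alternatives and Mlkl in 7; where the 2 symbols coincide, without pooling of the variance, both are at 0.22.

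Promoter windows were read from RefSeq (GRCm38.p6) for 5 of the 6 measured members, each running from 250 bases before to 50 bases after the gene's start. No window was available for Zbp1, the member with the largest rise. The Mlkl window is printed because Mlkl is known as an interferon-inducible gene that rose. The Cflar window is printed beside it. It was the only 1 of the 5 with a match, so it does not stand for the members that did not pass. Letters searched on both strands were the core of the interferon-stimulated response element, which is GAAA followed after 2 bases by a second GAAA, the element TTCNNNGAA that STAT dimers bind, which reads the same on both strands, and the NF-kB motif by its name; capitals below mark a match to any of these. The Mlkl window (chr8:111338156-111338455, minus strand) held none of the 3, and the Cflar window (chr1:58711241-58711540, plus strand) held 1 match to the response element core on its reverse strand, shown in capitals as TTTCGGTTTC.
Mlkl: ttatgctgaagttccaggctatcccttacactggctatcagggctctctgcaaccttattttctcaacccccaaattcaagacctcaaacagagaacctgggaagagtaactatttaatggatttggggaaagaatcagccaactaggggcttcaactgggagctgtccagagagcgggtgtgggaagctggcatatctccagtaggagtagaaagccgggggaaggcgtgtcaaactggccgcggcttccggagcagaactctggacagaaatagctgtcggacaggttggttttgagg
Cflar: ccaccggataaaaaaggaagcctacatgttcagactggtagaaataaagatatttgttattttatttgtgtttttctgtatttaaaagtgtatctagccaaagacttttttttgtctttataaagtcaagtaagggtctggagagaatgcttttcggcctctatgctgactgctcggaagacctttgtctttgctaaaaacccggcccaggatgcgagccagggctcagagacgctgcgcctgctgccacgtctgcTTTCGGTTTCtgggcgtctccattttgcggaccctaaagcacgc
No match to any of the 3 was found in the windows of Ripk3, Casp8 and Fadd. Among all 32851 windows of this length in the table, 3.44% held the response element core, 8.3% the STAT element and 8.46% the NF-kB motif. A match is a description of letters, and its absence covers only this window.

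Ripk3 encodes the kinase that passes the signal of ZBP1, TRIF or RIPK1 to MLKL. It read 6.23 and 6.14 log2 units on the knockout arrays, against 6.13 and 6.17 on the control arrays. The control arrays and 1 knockout array lay within 0.04 of each other, and the groups overlapped. The difference was 0.03 (SE 0.09, limma adjusted p = 0.88), with a 95% interval of -0.19 to 0.25, which on the linear scale runs from 0.875-fold to 1.19-fold. A change of Ripk3 as large as that of Zbp1 or of Mlkl lies outside this interval. Its sign turned, to -0.01, when each array was centred on its median.

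Casp8 encodes caspase-8, the protease that starts death receptor apoptosis and cleaves RIPK1. Its level was 10.79 and 11.04 log2 units on the knockout arrays, against 10.75 and 10.50 on the control arrays. Both knockout arrays were higher than both control arrays, but only by 0.04 at the nearest pair, less than the 0.25 between the 2 arrays of either genotype. The difference was 0.29 (SE 0.14, limma adjusted p = 0.26), with a 95% interval of -0.05 to 0.63, and leaving out 1 array moved it between 0.16 and 0.42. A change of Casp8 as large as the 0.55 of Mlkl lies inside this interval. Cflar encodes cFLIP, which controls caspase-8 from within the complex and is itself known as an NF-kB target. It read 9.95 and 9.93 log2 units on the knockout arrays, against 9.84 and 9.84 on the control arrays. The arrays of a genotype lay close together, with an SD of 0.017 in knockout and 0.0024 in control, against a median residual SD of 0.0995 over all tested genes. The difference was 0.10 (SE 0.08, limma adjusted p = 0.50), with a 95% interval of -0.11 to 0.31. The interval of Cflar ends below the 0.55 of Mlkl. Casp8 and Cflar are neighbours on chromosome 1, with 1 other gene of the RefSeq table between them.

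Fadd encodes the adaptor that links death domains to caspase-8. Its level was 6.87 and 6.68 log2 units on the knockout arrays, against 6.88 and 6.85 on the control arrays, and knockout replicate 2 was the lowest of the 4. The groups overlapped in range at knockout replicate 1. Fadd was the 1 member with a negative difference, -0.09 (SE 0.10, limma adjusted p = 0.64), with a 95% interval of -0.34 to 0.16. Without knockout replicate 2 the difference was 0.0050. The interval of Fadd over all arrays ends below the 0.55 of Mlkl.

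**Figure D4:**
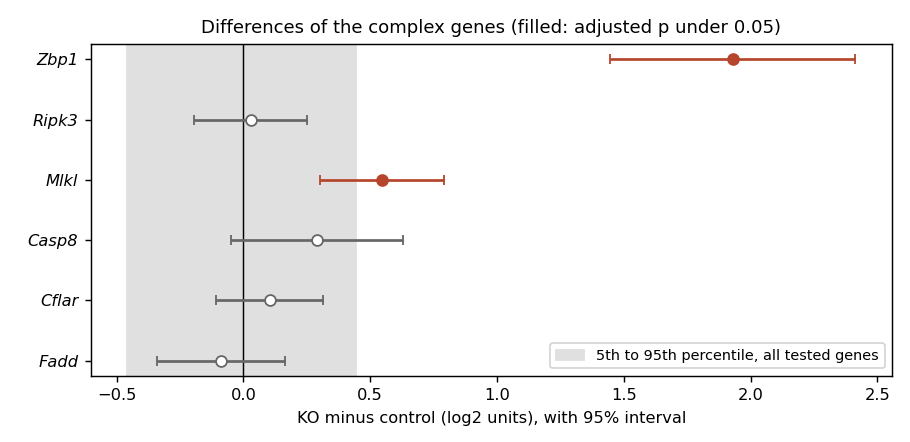
Difference between knockout and control in log2 units for the 6 genes, with 95% intervals from limma, filled where the adjusted p was under 0.05. The shaded band spans the 5th to 95th percentile of all tested genes, -0.46 to 0.44, and Zbp1 and Mlkl lie to the right of it.

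The genes next to the members on the chromosome were also read, taking on each side the nearest gene of the RefSeq table with a tested feature. Apart from Casp8 and Cflar, which are members and adjoin each other, there were 10 such genes, and none rose or fell. Zbp1, on chromosome 2, lay between Rbm38 at -0.04 (limma adjusted p = 0.84) and Pmepa1 at 0.17 (adjusted p = 0.48). Mlkl, on chromosome 8, lay between Rfwd3 at 0.08 (limma adjusted p = 0.61) and Wdr59 at -0.04 (adjusted p = 0.85). The neighbours of Ripk3 were Nop9 at -0.21 and Nynrin at -0.03, those of Fadd were Ppfia1 at -0.19 and Fgf15 at -0.10, and Trak2, beyond Casp8, was at -0.04. The widest difference among the 10 was 0.49 for the predicted gene Gm20257 beside Cflar (limma adjusted p = 0.13).

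Genes that feed into the complex or act beside it were read in 5 lists. Of 86 tested genes over these lists, 10 rose and 2 fell, or 14.0% in all, against 6.79% of all tested genes, and their median difference was 0.04. The lists were drawn up with earlier results of these data known, so the shares are a description. Only Irf7 passed with each of the 4 arrays left out in turn. Leaving out either knockout array left 1 gene that rose, leaving out control replicate 1 gave 5, 1 of them (Rnf31) not among the 10, and leaving out control replicate 2 gave 2, and in each case 0 fell. Over the other alternatives the counts ran from 0 that rose and 0 that fell, without pooling of the variance or with all features tested, to 15 that rose and 6 that fell, with an intensity trend.

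Among the ligands, receptors and adaptors that trigger the complex, 1 of 13 tested genes rose and 1 fell, with a median difference of -0.06. The share of all tested genes that rose or fell was 6.79%. Tlr3, the endosomal receptor of double-stranded RNA that signals through TRIF, read 8.30 and 8.40 log2 units on the knockout arrays, against 7.60 and 7.34 on the control arrays, and rose by 0.88 (SE 0.12, limma adjusted p = 0.019). Tnfrsf21, the gene of death receptor 6, read 7.66 and 7.64 on the knockout arrays, against 8.22 and 8.11 on the control arrays, and fell by 0.52 (SE 0.09, limma adjusted p = 0.036). The triggers best known in macrophages did not pass. Tnf differed by -0.17 (limma adjusted p = 0.30), its receptor gene Tnfrsf1a by -0.02 (adjusted p = 0.94), Fas by -0.24 (adjusted p = 0.16), Tlr4 by 0.42 (adjusted p = 0.053) and Ticam1, which encodes TRIF, by 0.27 (adjusted p = 0.16). Tlr4 rose as well with quantile normalization, with the stricter filter and with an intensity trend. Tlr3 passed without control replicate 1 (adjusted p = 0.047) but not without any other array, and Tnfrsf21 passed in none of these cases.

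Of 23 tested genes of the ubiquitin and kinase checkpoints on RIPK1, 2 rose and none fell, with a median difference of 0.08. Over all tested genes 6.79% rose or fell, and the list was not tested against that share. Peli1, an E3 ubiquitin ligase reported to act on RIPK1 and RIPK3, read 10.2 log2 units on both knockout arrays, against 9.36 and 9.50 on the control arrays, and rose by 0.76 (SE 0.09, limma adjusted p = 0.016). Tank, a scaffold of the kinases TBK1 and IKKε, read 8.93 and 8.98 on the knockout arrays, against 8.47 and 8.43 on the control arrays, and rose by 0.51 (SE 0.09, limma adjusted p = 0.034). The kinase genes themselves did not pass, Tbk1 at 0.16 (limma adjusted p = 0.40) and Ikbke at -0.19 (adjusted p = 0.30). Nor did the deubiquitinase genes Tnfaip3, which encodes A20, at 0.03 (limma adjusted p = 0.87) and Cyld at 0.19 (adjusted p = 0.33), or the inhibitor of apoptosis gene Birc3 at -0.01 (adjusted p = 0.98).

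Of 22 tested modulators of the necrosome and of membrane repair, 2 rose and none fell, with a median of -0.05. This stands beside the 6.79% of all tested genes that rose or fell, and was not tested against it. Adar, the double-stranded RNA editing enzyme whose Z-form binding isoform restrains ZBP1, read 8.43 and 8.52 log2 units on the knockout arrays, against 7.74 and 7.64 on the control arrays. It rose by 0.79 (SE 0.09, limma adjusted p = 0.014), so that the sensor gene Zbp1 and Adar were both higher in knockout. Adar was read as 1 value per array, so its Z-form binding isoform was not measured apart from the others. Axl, a receptor kinase of the TAM family, which has been linked to MLKL phosphorylation, rose by 0.81 (SE 0.09, limma adjusted p = 0.012). Its relative Mertk, at 0.13 (adjusted p = 0.41), did not pass. Nor did Pgam5, a mitochondrial phosphatase linked to necroptosis, at -0.24 (adjusted p = 0.24), or Ninj1, which ruptures the plasma membrane late in lytic death, at -0.12 (adjusted p = 0.61). Without any 1 array, Adar had an adjusted p of 0.0590 to 0.104, Axl of 0.0543 to 0.0868, Peli1 of 0.0545 to 0.112 and Tank of 0.100 to 0.196.

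Of 18 tested caspases and pyroptosis effectors, 1 rose and 1 fell, with a median of 0.09, beside 6.79% of all tested genes that rose or fell. Il18, a cytokine that inflammasome caspases mature, read 7.79 and 7.67 log2 units on the knockout arrays, against 6.88 and 6.98 on the control arrays, and rose by 0.79 (SE 0.10, limma adjusted p = 0.015). Htra2, the mitochondrial protease that counters inhibitor of apoptosis proteins once released, read 8.96 and 8.89 on the knockout arrays, against 9.55 and 9.38 on the control arrays, and fell by 0.54 (SE 0.10, limma adjusted p = 0.041). Gsdmd, whose product forms the pyroptotic pore and is a target of caspase-8 in macrophages, differed by 0.12 (limma adjusted p = 0.44). Neither Il18 nor Htra2 passed with any 1 array left out, with adjusted p-values of 0.0592 to 0.100 and 0.0761 to 0.209.

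Type I interferon signalling is a known inducer of Zbp1 and Mlkl, and its part in their rises here was not tested. Of its 10 tested genes 4 rose and none fell, with a median of 0.22, while 6.79% of all tested genes rose or fell. Ifnb1, the gene of interferon beta, read 8.45 and 8.42 log2 units on the knockout arrays, against 7.35 and 6.99 on the control arrays, and rose by 1.26 (SE 0.14, limma adjusted p = 0.012). Irf7 rose by 2.20 (SE 0.12, limma adjusted p = 0.0029). Stat2 and Irf9, which encode partners in the factor that binds the interferon-stimulated response element, rose by 0.86 (SE 0.10, limma adjusted p = 0.015) and 0.51 (SE 0.09, adjusted p = 0.036). Irf1 differed by -0.39 (limma adjusted p = 0.057), and fell when each array was centred on its median, with the stricter filter and with an intensity trend. Ifnb1 passed in 2 of the 4 cases with 1 array left out, both with a control array removed, Stat2 in 1, without control replicate 1, and Irf9 in 0.

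**Figure D5:**
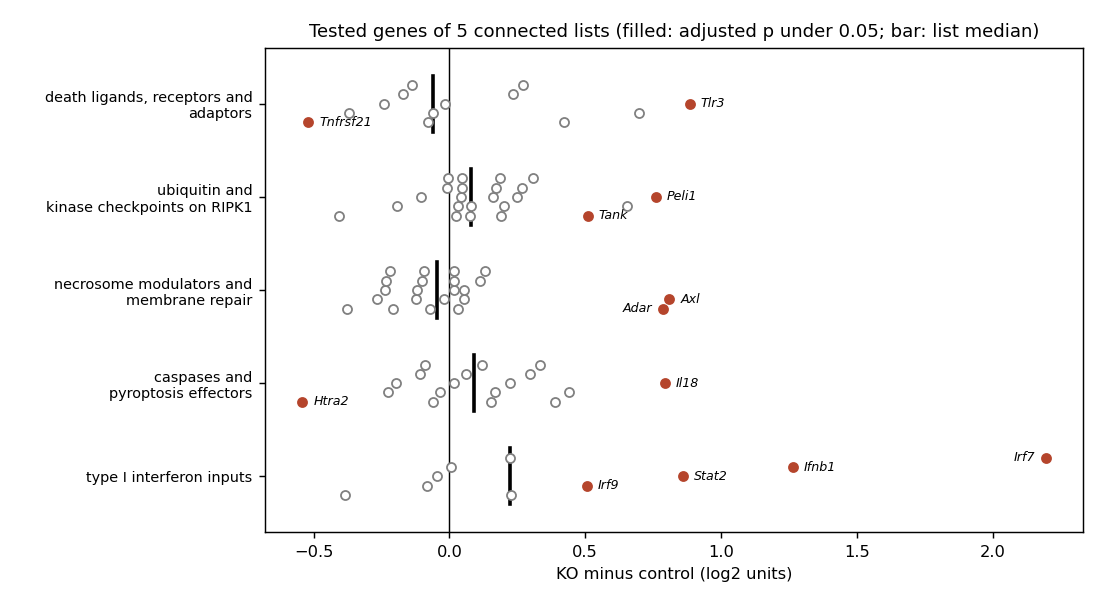
Difference between knockout and control in log2 units for each tested gene of the 5 lists, 1 row per list, filled and named where the adjusted p was under 0.05, with a bar at the list's median. The list medians lie between -0.06 and 0.22. The filled points are 4 of 10 in the type I interferon row and fewer in each other row, with Irf7 at 2.20 the farthest to the right.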

How the data were processed

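The authors deposited 1 table of log2 values, 41345 features by 4 arrays, made by robust multi-array averaging with background adjustment and normalization, per the series' design text and the submitters' processing notes, which name RMA and oligo without versions. A change in total RNA per cell is lost in that normalization, and differences of dim features are understated. Names came from the platform annotation (23521 features with 1 symbol, 1814 with several, 16010 without a row), with gene IDs of 23328 features matched to the RefSeq table of GRCm38.p6. A gene with several features was read from the brightest, by its mean over 4 arrays. Genes whose mean reached the median over all features (3.53) were tested in R 4.3.3 with limma 3.58.1 (lmFit, eBayes, two-sided, no block), with Benjamini-Hochberg adjustment over 12542 genes. Residual degrees of freedom were 2, and the prior added 3.51. It was tested on simulated data. An exact permutation of 2 against 2 arrays cannot go below p = 0.333. Arrays correlated at 0.986 to 0.990 with medians of 3.50 to 3.57, and their number limits the precision.

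The members, lists and alternatives were chosen with earlier results of these data known. Genes named were the members, Ppp2ca, up to 8 genes per list that passed, a fixed set of well-known genes whichever way they moved, the 4 nearest in pattern to Zbp1 and to Mlkl, and the nearest tested neighbours. Alternatives covered filter, scaling, feature choice, variance model, array weights, replicate block, arrays left out, features as units, and the fold cutoff.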

Additional observations from a re-analysis of the deposited data

How the results depend on the processing

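Over 15 alternatives to the fit, Zbp1 rose in 13 and Mlkl in 7, and their differences stayed positive, at 1.72 to 2.15 and 0.47 to 0.62. The count of members called was 1 in place of 2 with no filter, with the replicate block and at the 1.5-fold cutoff, and 0 without pooling of the variance and with all features tested. With no pooling, Zbp1 (1.93) had an adjusted p of 0.22 and Mlkl (0.55) of 0.22, and with all features tested 0.084 and 0.14. Mlkl (0.55) had 0.087 with no filter and 0.087 with the replicate block. With 1 array left out the members called were 1 in every case, and Mlkl ranged from 0.47 to 0.62 without passing. Ripk3 turned to -0.013 with median centring, and ranged from -0.016 to 0.074 with 1 array left out, Fadd from -0.18 to 0.0050; neither passed under any alternative. Casp8 and Cflar kept their sign and did not pass. The count of all genes called was 852 as reported, 333 with no filter, 1354 with the stricter filter, 1584 with an intensity trend, 312 with the replicate block, 15 with all features tested and 0 without pooling (2295 at an unadjusted p under 0.05), and 96 to 174 with 1 array left out. Scaling moved the median difference of all tested genes to -0.012 (quantile) and -0.034 (median centring). The labels state no pairing of same-numbered arrays. The deviations of these arrays correlated at -0.036, which with 2 arrays per genotype cannot show whether they were handled together. Why the counts differ between alternatives was not tested. With 1 array left out, its genotype's lone array is assumed to vary like the other genotype. Over the 86 tested pathway genes, 12 rose and 5 fell with the stricter filter, 15 and 6 with an intensity trend, 8 and 0 with no filter, 7 and 0 with the replicate block, and 0 and 0 without pooling and with all features tested, against 10 and 2 as reported. The 95% intervals of Casp8 and Cflar hold 0.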

Other observations

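Several genes of the lists missed the threshold over all genes although their own 95% intervals excluded 0. Over all 12542 tested genes, 3099 met that criterion (unadjusted limma p under 0.05), those that passed included. The list genes described here were picked after their values were seen. The same held for Fas, Ticam1, Tlr4, Traf2, Xiap, Azi2, Casp2, Gsdme, Aim2, Ifnar2 and Irf1, which are not described here. Rnf31, the catalytic subunit of the linear ubiquitin ligase that acts on RIPK1, read 6.73 and 6.70 log2 units on the knockout arrays, against 6.33 and 5.79 on the control arrays, a difference of 0.66 (SE 0.18, limma adjusted p = 0.10), and it passed when control replicate 1 was left out. Its partners differed less, Rbck1 by 0.05 (limma adjusted p = 0.81) and Sharpin by 0.08 (adjusted p = 0.68). Tnfsf10, the gene of the death ligand TRAIL, read 4.42 and 4.63 on the knockout arrays, against 4.11 and 3.54 on the control arrays, near the filter level, with a difference of 0.70 (SE 0.20, limma adjusted p = 0.11). Casp4, which in mice encodes the LPS-sensing caspase-11, differed by 0.44 (limma adjusted p = 0.12), and Apaf1, the scaffold of the apoptosome, by 0.39 (adjusted p = 0.069). Negative differences stood at Ikbkg, which encodes NEMO, with -0.41 (limma adjusted p = 0.091), at the second TNF receptor gene Tnfrsf1b with -0.37 (adjusted p = 0.067), and at the ESCRT ATPase gene Vps4a with -0.38 (adjusted p = 0.077). In Rnf31 and Tnfsf10 the 2 control arrays were farther apart than the 2 knockout arrays, and control replicate 2 was the lowest array for both.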
